A study of Rattus norvegicus with 6 samples.

Results

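The 9 genes described here control the skeletal muscle programme: Myod1, Myog, Myf5 and Myf6, which encode the myogenic regulatory factors, Mef2a, Mef2c and Mef2d, which encode MEF2 factors, the progenitor gene Pax7, and Mstn, which encodes the muscle growth inhibitor myostatin. The genes, and the lists set beside them below, were chosen by name, with earlier results of these data known. Otherwise the signal of the 9 genes served only to pick the brightest probe of a gene and to set which genes could be tested. Through the mRNA accessions of the array, 6 of the 9 were matched to a probe, among 13823 genes with a symbol, and 4 of them were bright enough to be tested, among 10001 genes tested. Mef2a, Mef2c and Pax7 were not matched to an mRNA accession and are not analysed here. RNA came from H9c2, a line of myoblasts grown out of embryonic heart of the rat, which can form skeletal-muscle-like myotubes. The 3 control samples were kept at normal oxygen, and the 3 samples of the hypoxia/reoxygenation (H/R) group lacked serum and glucose in the medium and spent 1 h at 1% oxygen followed by 3 h at normal oxygen. Cells of both groups had been grown with 10% serum, and the labels do not give the medium of the control cells during the treatment. Every sample is the same line, and the labels name no genetic change. The design text speaks of 3 independent experiments per group. The labels' protocol text also names mouse cortex as an RNA source, which goes against every other label.

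Myogenic regulatory factors are basic helix-loop-helix proteins. They pair with E proteins such as those encoded by Tcf3, Tcf4 and Tcf12 and bind E-boxes, short DNA motifs of the form CANNTG, in muscle genes. Id proteins lack the DNA-binding region and hold E proteins in pairs that cannot bind. Myod1 and Myf5 set the myoblast state, Myog acts when myoblasts leave the cell cycle and fuse, Myf6 acts late in differentiation, and MEF2 factors bind A/T-rich sites and work together with all of them. Pax7 marks the satellite cells that replace muscle fibres, and myostatin acts through activin type II receptors.

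The files of replicates 2 and 3 name the same slide position but different scans, in both groups. Each such pair shared 36 spots flagged for uneven local background, while no other pair shared more than 1. They were counted as 1 array, which leaves 2 arrays per group where the design text gives 3 experiments. Between 58.4% and 71.1% of non-control spots were well above background per file, the highest shares in H/R replicates 2 and 3, and 0 were saturated. The spread behind each p-value is that between these few arrays and may be technical, and their number limits the precision. Of 9 markers of myogenic cells set out for the check of the label, 8 were on the array and all 8 were well above background in all 6 scans. Myod1, Myog and Myf5, which are members here, were among the 8. The 11 fibroblast and 7 smooth muscle markers on the array were all well above background too. The check therefore does not tell myogenic cells from those types. Group and slide position cannot be told apart, since each array had a position of its own. Lack of serum and glucose and the change of oxygen came together in the H/R group, so these cannot be told apart either. In bulk RNA, fewer cells of a type and less RNA per cell cannot be told apart.

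The sequences upstream of 3 of the measured members, and of the cardiac troponin T gene Tnnt2, which had the smallest adjusted p of the muscle differentiation genes that rose, are shown because they are where factors of these families could bind. Each is the 250 bases before the gene's start, 5′ to 3′ on the gene's strand, from RefSeq on GRCr8, whose promoter table held 6 of the 9 members. Myod1, Mef2c and Mstn were not among them. The array was designed on another build (rn4), and these coordinates do not come from the files. Capitals mark E-boxes (CANNTG, which reads alike on both strands) and 1 A/T-rich sequence of MEF2 type, searched on both strands and present in the Myog line alone. The windows are chr13:48297226-48297475 (plus strand) for Myog, chr2:175904082-175904331 (plus strand) for Mef2d, chr7:44692639-44692888 (minus strand) for Myf5 and chr13:49818873-49819122 (plus strand) for Tnnt2.
Myog: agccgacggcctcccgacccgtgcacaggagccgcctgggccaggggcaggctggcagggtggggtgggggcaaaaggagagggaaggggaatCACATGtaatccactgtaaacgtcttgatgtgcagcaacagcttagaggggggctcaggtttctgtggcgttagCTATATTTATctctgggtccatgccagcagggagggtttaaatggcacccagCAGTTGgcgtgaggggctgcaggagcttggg
Mef2d: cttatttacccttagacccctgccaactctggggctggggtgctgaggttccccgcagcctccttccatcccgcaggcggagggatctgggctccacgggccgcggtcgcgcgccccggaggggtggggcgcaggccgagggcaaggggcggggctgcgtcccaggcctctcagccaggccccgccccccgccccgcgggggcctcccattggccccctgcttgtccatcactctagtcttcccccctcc
Myf5: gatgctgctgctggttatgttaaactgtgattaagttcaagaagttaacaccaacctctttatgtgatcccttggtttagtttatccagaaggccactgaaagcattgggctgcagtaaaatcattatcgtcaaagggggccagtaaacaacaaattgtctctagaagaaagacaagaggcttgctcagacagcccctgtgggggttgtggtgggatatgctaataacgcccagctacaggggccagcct
Tnnt2: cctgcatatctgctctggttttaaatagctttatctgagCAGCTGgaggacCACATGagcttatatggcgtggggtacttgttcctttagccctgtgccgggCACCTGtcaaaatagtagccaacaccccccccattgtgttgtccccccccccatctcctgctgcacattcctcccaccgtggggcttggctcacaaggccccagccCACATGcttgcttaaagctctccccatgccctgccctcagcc

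The Myog window held 2 E-boxes, starting 157 and 31 bases before the gene's start, and the MEF2-type sequence starting 83 bases before it. That sequence was searched for as 1 fixed string and was in 26 of 33469 windows of the same length (0.0777%). A fixed string of that length is rare whichever it is, so its rarity gives the match no weight. The E-box is shorter and has free bases, and 65.5% of the windows held at least 1, so the 2 shares cannot be compared. The windows of Mef2d and Myf5 held neither motif. Tnnt2 had 4 E-boxes in the window shown, 1 of them CAGCTG, a form that was in 12% of all windows, and 1 E-box in the window of a second start. Of the members without a shown window, Myf6 had 1 E-box, and Myf6 and Mef2a each had 1 match to the more general MEF2 consensus, 76 and 40 bases before the start. That consensus was in 2.96% of all windows, and the Myog window did not match it. A match of letters is a description of the sequence and says nothing of binding in these cells.

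Myod1 and Mef2d were lower after H/R, and the other 2 tested members, Myog and Myf5, did not pass the test. Thus 2 of 4 tested members fell and 0 rose (limma, threshold 0.05 after Benjamini-Hochberg adjustment over 15899 probes). Of the 10001 genes tested 25.8% passed, 9.62% lower and 16.2% higher, and of all 15899 probes 23.7% passed, 8.87% lower and 14.8% higher. A count of 2 among 4 genes is too small to set against those shares. The median difference was -0.38 over the 4 members and 0.07 over all genes tested, on the log2 scale. Each member had 1 probe with 1 spot per array, so no second probe or spot checks its value. The share of all genes whose groups did not overlap was not counted. With 2 arrays per group such a separation, where named below, carries little weight by itself.

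Myod1 fell most. Its log2 signal relative to the 75th percentile of the array was 2.69, 3.07 and 3.07 in the 3 control files and 1.26, 1.57 and 1.52 in the 3 H/R files, in the order of their replicate numbers. The processed signal behind those values was 15883, 17576 and 17489 units in the controls and 4248, 7638 and 7555 units in H/R. Every H/R scan lay below every control scan. The group means were 2.88 ± 0.26 and 1.41 ± 0.20 (SD, n = 2 arrays). Myod1 fell by 1.48 ± 0.18 on the log2 scale (moderated SE), which is to 0.36 of its control signal (limma adjusted p = 0.00814). Among all genes tested 70 (0.70%) fell further. The call held whichever array was left out, with differences between -1.66 and -1.29 and adjusted p between 0.0208 and 0.0448. It was lost after normexp background correction, under which 0 probes passed (2044 at an unadjusted p under 0.05), with -1.55 and adjusted p = 0.279. Without the filter on dim probes the difference was the same and the adjusted p was 0.0558.

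Mef2d, the only 1 of the 3 MEF2 members with a matched probe, fell too. Its log2 signal relative to the 75th percentile was 0.74, 0.33 and 0.36 in the controls and -0.14, -0.43 and -0.38 in H/R, from processed signals of 4108, 2631 and 2678 units and of 1606, 1910 and 2018 units. The groups did not overlap, and in both of them replicate 1 was the highest. The means were 0.54 ± 0.28 and -0.27 ± 0.19 (SD, n = 2 arrays). The fall was 0.82 ± 0.18 (log2 scale, moderated SE), to 0.57 of the control signal (limma adjusted p = 0.0338), and 356 genes (3.56%) fell further. This call rested on single arrays. The adjusted p was 0.0862 without control array 1, 0.0810 without H/R array 1 and 0.142 when H/R array 2 was left out, with differences of -0.62, -0.95 and -0.68. It was 0.361 after normexp correction and 0.125 without the filter on dim probes.

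**Figure D1:**
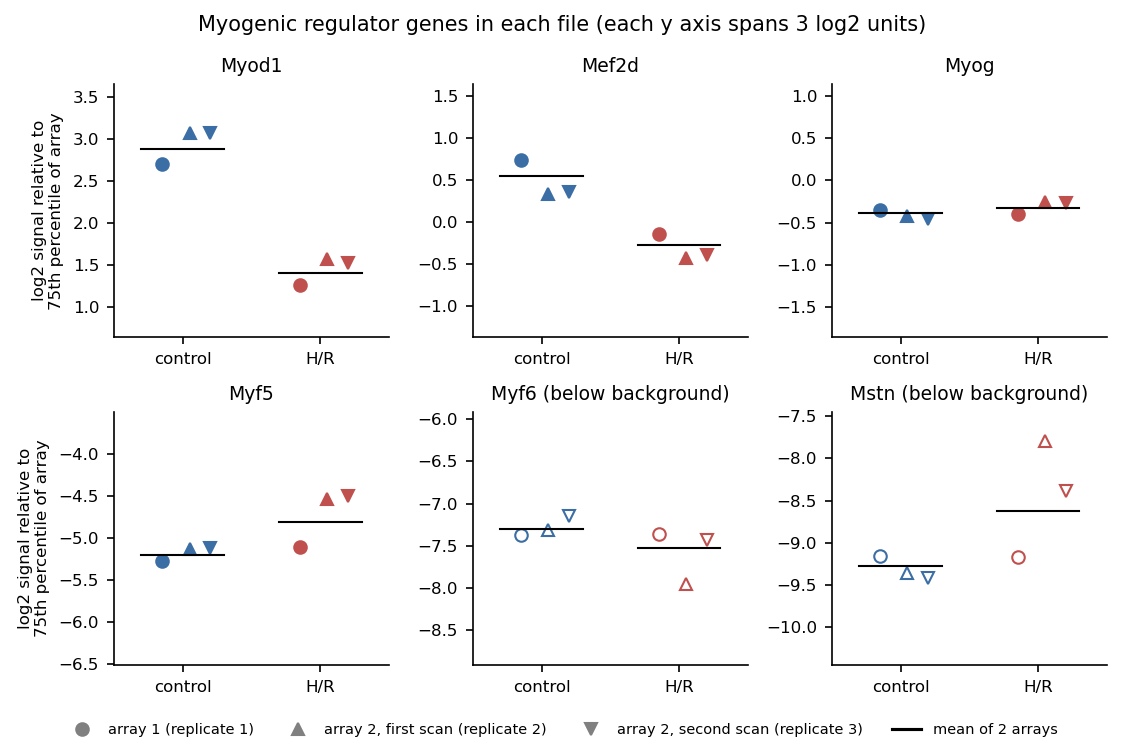
Log2 signal relative to the 75th percentile of the array (y axis, 3 log2 units in every panel) for the 6 matched genes in control (blue) and H/R (red) files. Symbols mark array and scan, black lines the mean of 2 arrays, and open symbols the 2 genes not well above background. The H/R points of Myod1 and Mef2d all lie below the control points. For Myog, H/R array 1 lies among the control points and both scans of H/R array 2 lie above them.

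Myog, the gene switched on as myoblasts begin to differentiate, was at a similar level in both groups. Its log2 signal relative to the 75th percentile was -0.34, -0.42 and -0.46 in the controls and -0.40, -0.26 and -0.26 in H/R, from processed signals of 1933, 1569 and 1518 units and of 1342, 2145 and 2195 units. The scans of the groups overlapped. The difference was 0.06 ± 0.10 (limma adjusted p = 0.691), and its sign turned, to -0.066, when arrays were scaled to their median. Because 2 genes on opposite sides of a threshold need not differ, the change of one against the other was computed within arrays. Log2 Myod1 minus log2 Myog lay between 3.04 and 3.53 in the control scans and between 1.66 and 1.83 in the H/R scans, a change of -1.54. For Mef2d the corresponding difference, log2 Myog minus log2 Mef2d, lay between -1.09 and -0.75 in the controls and between -0.26 and 0.17 in H/R, a change of 0.88. Neither pair of ranges overlapped. The same difference between the 2 members that fell, log2 Myod1 minus log2 Mef2d, overlapped between the groups (1.95 to 2.74 in the controls, 1.40 to 2.00 in H/R), with a change of -0.66. With 2 arrays against 2 an exact two-sided permutation test cannot go below p = 0.333, the value of the first and second of these contrasts (adjusted p = 0.5 over the 6 pairs of tested members), and p was 0.667 for the third (adjusted p = 0.667).

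Myf5, the other early determination gene, gave a dim signal, 51.2 to 115.9 units of processed signal in the 6 files. Its log2 signal relative to the 75th percentile was -5.27, -5.13 and -5.12 in the controls and -5.11, -4.53 and -4.51 in H/R. H/R array 1 lay just above the highest control scan and the scans of H/R array 2 further up. The difference was 0.38 ± 0.21 and did not pass (limma adjusted p = 0.245). It was 0.68 when H/R array 1 was left out and 0.09 when H/R array 2 was. The median difference of the 806 tested genes within 0.5 log2 units of the level of Myf5 was 0.13, against 0.07 over all genes tested.

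Myf6 and Mstn were not well above background in any of the 6 scans, and no fold is given for them. The processed signal of Myf6 was between 13.2 and 14.8 units in the controls and between 10.3 and 15.2 in H/R. For Mstn it was between 3.05 and 4.29 units in the controls and 3.07, 11.6 and 7.84 in H/R replicates 1 to 3. Its 2 scans of H/R array 2 were the brightest, but below the background limit like the others. In RefSeq's gene order Myf6 and Myf5 are neighbours on chromosome 7, and of this linked pair only Myf5 was measurable here.

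**Figure D2:**
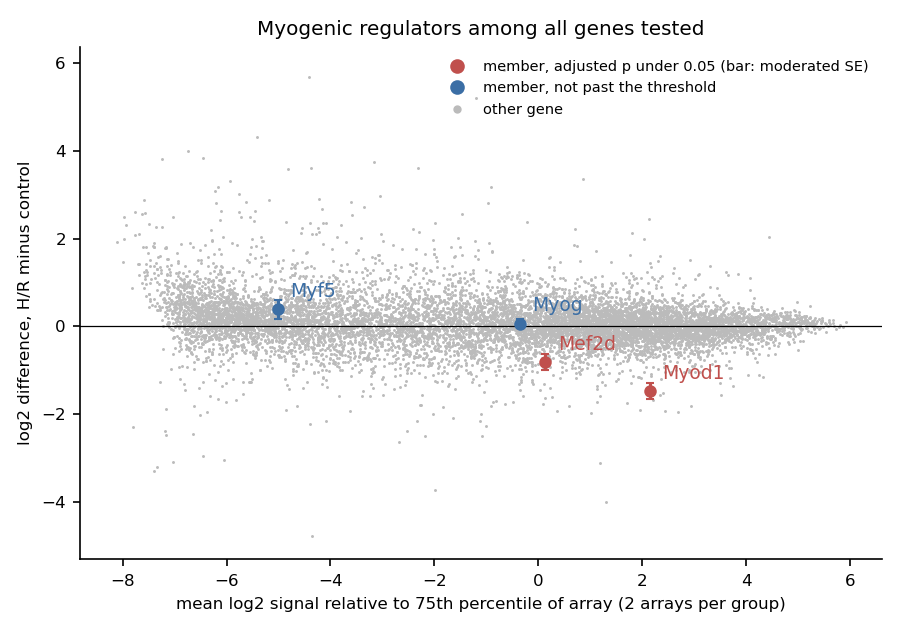
Log2 difference between H/R and control (y axis) against the mean log2 signal relative to the 75th percentile (x axis) for 1 probe of each of 10001 genes (grey), with the 4 tested members and their moderated SE. Myod1 lies at -1.48 and Mef2d at -0.82, both past the threshold (red), and Myog at 0.06 and Myf5 at 0.38 (blue).

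The genes whose pattern over the 4 arrays was closest to that of the 2 members that fell were named by a rule of Euclidean distance between centred log2 values. For Myod1 they were Rasa2, which encodes a GTPase-activating protein for RAS (distance 0.055), Rad18, which encodes a ubiquitin ligase of DNA damage tolerance (0.080), and Timeless, which encodes a replication fork protein (0.19). For Mef2d they were Xrcc2, which encodes a recombination protein (0.068), Rassf1 (0.10) and the Krüppel-like factor gene Klf2 (0.12). These genes fell by 1.47, 1.44 and 1.33 and by 0.85, 0.80 and 0.71 on the log2 scale. The measure covers only 4 arrays and includes the size of the fall.

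Partners and inhibitors of the myogenic factors moved more often downward. Of 27 genes of this list on the array 26 were tested, 1 rose and 9 fell, and the median difference was -0.19, against 1617 rises and 962 falls among 10001 genes and a median of 0.07. All 4 Id genes were among those that fell. Id1 gave log2 signals of 2.86, 2.93 and 2.94 in the controls and 0.97, 1.03 and 1.04 in H/R. The groups lay far apart, and Id1 fell by 1.90 ± 0.09 (limma adjusted p = 0.00183). Id4 fell by 1.80 ± 0.09, Id2 by 1.58 ± 0.19 and Id3 by 0.62 (adjusted p = 0.00183, 0.00815 and 0.0234). Of the E protein genes, Tcf4 fell by 0.72 (adjusted p = 0.0213), while Tcf3 and Tcf12 had differences of 0.23 and 0.16 and missed the threshold (adjusted p = 0.388 and 0.312). Id3, Tcf3, Tcf4 and Tcf12 were singled out after their values were seen. The gene that rose was Map2k6, which encodes a kinase that activates p38, a kinase that acts on MEF2 and E proteins. It rose 5.64-fold (adjusted p = 0.00255), from log2 signals of -7.18, -6.83 and -6.67 to -4.46, -4.50 and -4.45, and 1 of the 3 control scans was not well above background. Map2k6 thus entered the test only through the H/R scans, and its log2 difference was 1.68 in place of 2.50 after normexp correction (limma adjusted p = 0.43). With a filter that asked for all 6 scans, 24 genes of this list were tested, 0 rose and 9 fell. Without 1 array, between 3 and 5 genes of this list fell in place of 9, so the count rested on single arrays.

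Muscle differentiation genes, a list chosen by name that also holds cardiac forms such as Tnnt2, were mostly measurable. Whether the members act on these genes here was not tested. Of 39 on the array 37 were tested, 16 rose and 4 fell, with a median difference of 0.45. Over all 10001 genes tested 16.2% rose and 9.62% fell, so rises outnumbered falls there too, and the median was 0.07. Tnnt2 gave log2 signals of 1.67, 1.61 and 1.60 in the controls and 2.76, 2.77 and 2.75 in H/R. All H/R scans lay above the controls, and it rose by 1.13 ± 0.09 (2.18-fold, limma adjusted p = 0.00379). The myosin heavy chain genes Myh2 and Myh6 rose 2.13-fold and 1.98-fold (adjusted p = 0.00538 and 0.00527). Chosen after their values were seen, the muscle creatine kinase gene Ckm rose 2.32-fold (adjusted p = 0.0398) and the acetylcholine receptor gene Chrna1, which no control scan scored as well above background, at least 1.83-fold (adjusted p = 0.0328). The log2 signal of Ckm was -3.33, -3.58 and -3.57 in the controls, -2.64 on H/R array 1 and -1.84 and -1.83 in the scans of H/R array 2. The size of its rise thus depended on the H/R array. Chrna1 entered the test only through the H/R scans, so its rise carries no weight in the count. With a filter that asked for all 6 scans, 15 of 36 rose and 4 fell. That bound sets the mean of the H/R arrays against the control arrays' own signal or, where higher, the dimmest signal scored well above background.

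The members of that list that fell were Klhl41, which encodes a sarcomere assembly protein (by 1.00 ± 0.13), Myoz1, which encodes a Z-disc protein (by 0.51), Cav3, which encodes the muscle caveolin (by 0.50), and, named after its value was seen, the receptor gene Chrnb1 (by 1.43). Their adjusted p lay between 0.00928 and 0.0295. The sarcomeric actin genes Acta1 and Actc1 had differences of -0.25 and 0.05 that missed the threshold (adjusted p = 0.123 and 0.745; chosen after their values were seen). The sign of Myoz1 turned to 0.45 after normexp background correction. No fall passed after normexp correction or without the filter on dim probes. The count of rises was 11 after quantile normalization, 14 after median scaling, 0 after normexp correction and 3 without the filter on dim probes. It was 9 and 11 without control array 1 and 2, and 9 and 4 without H/R array 1 and 2, and the falls numbered 1 and 2 and then 1 and 1, so both counts rested on single arrays. Cav3 and Myoz1 lost the call whichever array was left out (adjusted p between 0.0595 and 0.116 for Cav3 and between 0.0694 and 0.127 for Myoz1). Of the 37 differences 27 were above 0 with all arrays and 24 to 26 without 1 of them.

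**Figure D3:**
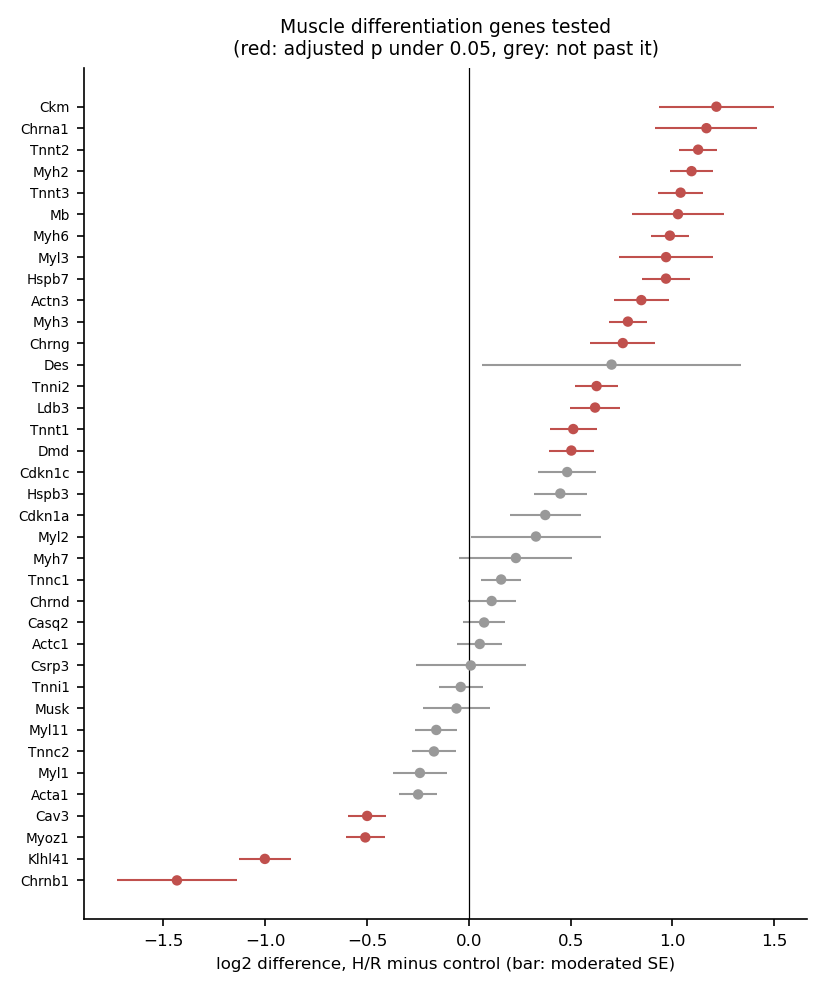
Log2 difference between H/R and control (x axis, with the moderated SE as a bar) for the 37 tested muscle differentiation genes, sorted by size, red where the adjusted p was under 0.05. The 16 rises reach 1.22 (Ckm, higher on H/R array 2 than on H/R array 1) and the 4 falls -1.43 (Chrnb1). The value of Chrna1 is the fitted one.

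Upstream regulators of muscle development mostly did not pass. Of 17 on the array 13 were tested, 1 rose and 1 fell, where 16.2% of all genes tested rose and 9.62% fell. The median difference of the list was -0.18. It turned to 0.74 after normexp correction, which moved the median of all probes to 0.33. Dmrt2 rose 1.71-fold (limma adjusted p = 0.0178), and Hmga2, which encodes a chromatin protein of proliferating progenitors, fell by 1.00 ± 0.12 (adjusted p = 0.00811) but turned to 0.64 after normexp correction. Dmrt2 lost the call without control array 1, H/R array 1 or H/R array 2 (adjusted p = 0.063, 0.0537 and 0.0893), and Hmga2 without H/R array 1 (0.0514). Of 13 tested satellite cell and myoblast markers 2 rose and 5 fell, beside the same shares of all genes tested (16.2% and 9.62%). Their median difference was -0.16 (0.20 after normexp correction). The chordin-like gene Chrdl2 fell by 3.73 ± 0.11, the adhesion gene Ncam1 by 1.40 ± 0.21 and the integrin gene Itga7 by 1.00 ± 0.11 (adjusted p at most 0.0134). The adhesion gene Vcam1 rose 3.09-fold and the receptor gene Notch1 2.55-fold (adjusted p = 0.00207 and 0.00276). Between 1 and 4 markers fell without 1 array. Without H/R array 2 the calls of Ncam1 and Itga7 were lost, and without H/R array 1 that of Ncam1.

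Among cardiac transcription factor genes, of which 18 were on the array and 11 tested, 1 rose and 2 fell. Over all genes tested 16.2% rose and 9.62% fell. The median difference of the list was -0.29 (0.01 after normexp correction). The serum response factor gene Srf fell by 0.93 ± 0.09 and Myocd, which encodes its coactivator myocardin, by 0.80 ± 0.09 (limma adjusted p = 0.00580 and 0.00743). Tead2, which encodes a factor bound by YAP, rose 1.46-fold (adjusted p = 0.0186). After median scaling 4 fell in place of 2. Tead2 lost the call without control array 1, H/R array 1 or H/R array 2 (adjusted p = 0.0658, 0.102 and 0.0939), and Myocd without H/R array 2.

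Mstn itself was below background, but genes of its pathway were measurable. Of 23 on the array 19 were tested, 1 rose and 3 fell, where 16.2% of all genes tested rose and 9.62% fell. The median difference of the list was 0.06 and turned to -0.06 after median scaling. Smad7, which encodes an inhibitory SMAD, fell by 0.89 ± 0.10, the receptor gene Acvr2b by 0.76 ± 0.11, and Fst, which encodes the myostatin antagonist follistatin, by 0.65 ± 0.10 (limma adjusted p = 0.00782, 0.0130 and 0.0141). Dcn, which encodes the proteoglycan decorin, rose 1.66-fold (adjusted p = 0.0257). Without either H/R array 0 rose and 1 fell, so these calls rested on single arrays. Fst lost the call without control array 1 or either H/R array (adjusted p between 0.0525 and 0.0833), Dcn without control array 2 or either H/R array (between 0.0622 and 0.121), Smad7 without H/R array 1 and Acvr2b without H/R array 2.

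Markers of other cell types are given because the muscle genes moved between the groups. Of 11 tested fibroblast markers 3 rose and 0 fell: Lum by 2.14 ± 0.10, Dcn by 0.73 and Pdgfrb by 0.51 on the log2 scale (limma adjusted p = 0.00182, 0.0257 and 0.0338), against 16.2% of all genes tested. Without control array 1 and 2 there were 2 and 1 rises, without H/R array 1 and 2 again 2 and 1, and 1 gene fell without control array 2. Lum kept the call in each of these fits and Pdgfrb in none. All 11 were well above background in all scans, and their summed signal, in multiples of the 75th percentile, was 94.1 to 113.1 in the controls and 119.6 to 123.6 in H/R. For 7 smooth muscle markers, of which Myocd fell, the sums were 75.1 to 84.6 and 76.7 to 84.3. Of 5 endothelial markers on the array Pecam1, Cdh5 and Erg were below background in all 6 scans, Tek rose 2.16-fold (adjusted p = 0.00848), and the sums were 0.0703 to 0.0745 and 0.122 to 0.142. Of 9 macrophage and leukocyte markers Ptprc, Adgre1 and Itgam were below background in all 6 scans. Cd74 rose 2.87-fold (limma adjusted p = 0.00743). In Cd74 1 of the 3 control scans was not well above background, so that it entered the test only through the H/R scans. With a filter that asked for all 6 scans, 4 of these markers were tested and 0 rose. The sums of the list were 0.576 to 0.727 and 0.700 to 0.735. Of 10 neuron and glia markers Rbfox3, Slc17a7, Gad1 and Aqp4 were below background in all 6 scans, and the sums were 0.445 to 0.455 and 0.733 to 0.748. The sums of the muscle differentiation genes were 97.9 to 110.7 in the controls and 111.4 to 114.4 in H/R. Such sums are weighted to the brightest genes. Here these were Cdkn1a, Casq2 and Tnnc2, which did not pass (limma adjusted p = 0.181, 0.627 and 0.285). The sums therefore say little of the genes that rose. The part of the fibroblast markers in the differences of the muscle genes was not tested.

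**Figure D4:**
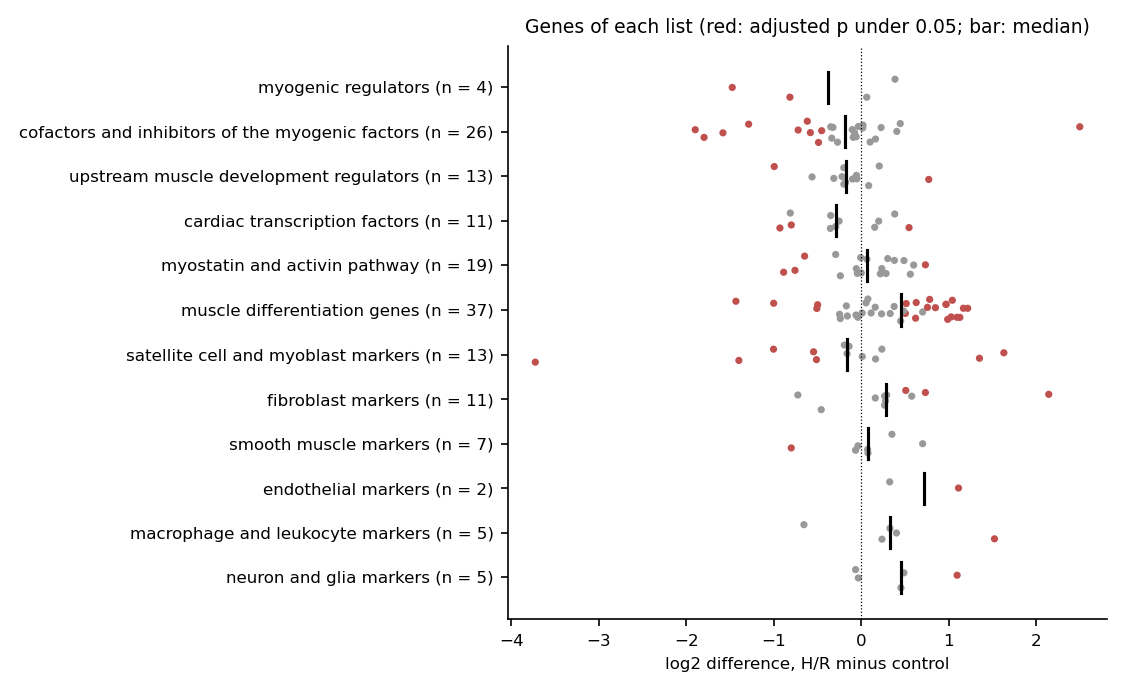
Log2 difference between H/R and control (x axis) for each tested gene of the 12 lists (rows), red where the adjusted p was under 0.05, with a bar at the median. The muscle differentiation genes centre at 0.45 and the partners and inhibitors of the myogenic factors at -0.19.

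**Figure D5:**
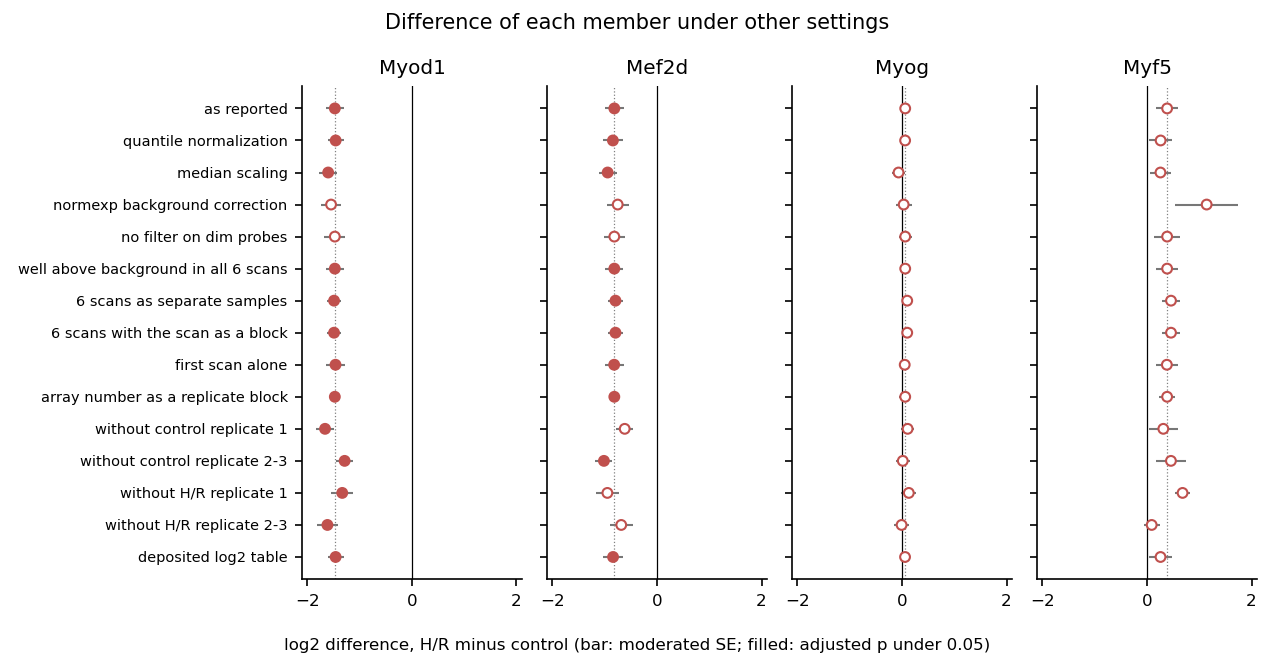
Log2 difference between H/R and control (x axis, with the moderated SE) of the 4 tested members under each setting (rows), filled where the adjusted p was under 0.05. Myod1 lies between -1.66 and -1.29 and Mef2d between -1.02 and -0.62 under every setting drawn, open where the call was lost.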

How the data were processed

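Expression in 3 control and 3 H/R samples was read on Agilent arrays in 1 colour (Cy3). The deposited scanner files hold intensity values extracted with Agilent Feature Extraction 11.0.1.1, per the submitters' processing notes, and corrected for background within the array, per the file headers. Flags deposited beside them, of a kind other than intensity, mark spots as saturated, as outliers or as well above background. A log2 table deposited by the authors covers 16841 probes and correlated with the scanner values at r of 0.9998 to 0.9999 across probes, which are not independent replicates; column medians were 9.182 to 9.187, and the sources used here do not give its normalization.

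Control and outlier spots were left out, log2 values averaged per probe, the 75th percentile over probes subtracted from each array, and replicates 2 and 3 averaged (avearrays). Tests used limma 3.58.1 in R 4.3.3 (lmFit, eBayes, two-sided, 2 residual and 2.86 prior degrees of freedom) on 15899 probes that every scan of one group or the other scored as well above background, of 24578 with a usable spot in every file, with Benjamini-Hochberg adjustment and a threshold of 0.05. The fit was tested on simulated data. Scripts used Python 3.11.15 and pandas 2.3.3. Of 15251 mRNA probes 14205 got a symbol from RefSeq accessions (GRCr8, used for names); a gene is its probe of highest mean signal. The members and gene lists were chosen with earlier results of these data known. Named genes are the members, up to 3 genes that rose and 3 that fell per list by smallest adjusted p, and the 3 genes most like each member that fell, apart from those said to be chosen later; 1 gene that the rule names is not reported here.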

Additional observations from a re-analysis of the deposited data

How the results depend on the processing

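Directions of Myod1 and Mef2d held under all 14 alternatives run. The call of neither held after normexp background correction (offset 50, on the median spot signal, chosen after seeing that the files hold no mean signal), with -1.55 and -0.75 and limma adjusted p of 0.279 and 0.361, or without the filter on dim probes, with -1.48 and -0.82 and adjusted p of 0.0558 and 0.125. In those fits 0 and 594 probes changed in place of 3769 (2044 and 5800 at an unadjusted p under 0.05), 0 and 0 members, and 0 and 11 of the other listed genes in place of 51. Scaling moved the median of all probes from 0.07 to -0.06 (median) or 0.33 (normexp). Myog was -0.066 after median scaling. After median scaling 1566 of the calls were higher and 2253 lower, against 2358 and 1411, and with quantile normalization 1987 and 1707. With the 6 scans as separate samples 8309 probes changed, and 7423 with the scan as a block. Leaving out each array in turn gave 1008 to 2702 probes, 1 to 2 members, -1.02 to -0.62 for Mef2d and -0.0078 to 0.13 for Myog. Of 29 other named genes, all 29 lost the call after normexp, where Hmga2 (0.64) and Myoz1 (0.45) also turned sign, 18 lost it without the filter and 4 to 11 without 1 array. The array number as a replicate block gave 3886 probes and changed no call of a member. The 2 pairs give 1 correlation of deviations, 0.153, and cannot show whether the numbers pair the samples. Other probes of a member could not be tried, since each had 1. Signal over background limits Myf5, Myf6 and Mstn.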

Other observations

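In the desmin gene Des, which encodes the muscle intermediate filament, the arrays of the H/R group differed widely. Its log2 signal relative to the 75th percentile was -0.39, -0.06 and 0.03 in the controls, -0.47 in H/R replicate 1 and 1.45 and 1.47 in both scans of H/R array 2. The difference of 0.70 ± 0.64 did not pass (limma adjusted p = 0.454). Mef2b, a further MEF2 gene on the array, had a difference of 0.15 that missed the threshold (adjusted p = 0.488).

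The genes Trim63 and Fbxo32, which encode ubiquitin ligases of muscle protein breakdown, had log2 differences of 0.60 and 0.56 that missed the threshold (limma adjusted p = 0.0636 and 0.120). Among tested muscle differentiation genes with a RefSeq window, 13 of 32 (40.6%) held CAGCTG in the 250 bases before a start, 5 of the 15 that rose and 3 of the 4 that fell. The share of all windows was 12%, counted per window, whereas a gene with several starts has several windows.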
